A study of Rattus norvegicus with 3 samples.

Results

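Translation initiation factors are the proteins that bring the ribosome, the initiator tRNA and the messenger RNA together at the start codon. Their genes were taken from the array text files as all rat probes whose gene name starts with Eif and a digit, whatever the case and after removal of the endings _predicted or _mapped. This gave 42 of the 35506 genes on the arrays, through 74 probes. The array names are old ones, so Eif3a stands there as Eif3s10 and the Argonaute gene Ago1 as Eif2c1, and current symbols are used here. RNA of iPS M13, a line of rat induced pluripotent stem cells (adult cells reprogrammed to a state like that of embryonic stem cells), was labelled with Cy3 and hybridised on 3 arrays, 1 sample each. The Cy5 channel of every array held mix1, an RNA mixture of adult rat cells, namely bone marrow cells and primary ear fibroblasts that had each been cultured. The iPS M13 cells grew untreated on feeders of irradiated mouse embryonic fibroblasts, in a medium with serum and serum replacer, and the mix1 cells in other media with serum. The labels name 1 iPS line and 1 mixture and do not tell whether the 3 iPS M13 samples are separate cultures. All p-values therefore refer to the variation among the 3 arrays, part or all of which may be technical.

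In eukaryotic initiation, eIF2 with GTP carries the initiator tRNA to the small ribosomal subunit, where eIF1, eIF1A, eIF3 and eIF5 also bind. The eIF4F complex, made of the cap-binding protein eIF4E, the scaffold eIF4G and the RNA helicase eIF4A, attaches the messenger RNA by its cap. Cells restrain the process at a pair of well-known points: stress kinases phosphorylate the alpha subunit of eIF2, which then blocks its exchange factor eIF2B, and eIF4E binding proteins (4E-BPs), when not phosphorylated by the kinase mTOR, keep eIF4E from eIF4G.

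Of the 42 genes, 40 were measured, meaning that a probe was well above background in the same RNA on all 3 arrays. A gene was called when limma gave a Benjamini-Hochberg adjusted p under 0.05 over all 20325 genes tested and the log2 of iPS M13 over mix1 was at least 1 in size, which is 2-fold. In iPS M13, 9 of the 40 genes were called higher (22.5%), against 18.8% of all genes tested. None was called lower, against 25.4% of all genes tested, although 8 of the 9 genes with a negative ratio passed the adjusted p alone, as they did an unadjusted p under 0.05. Of all 40 genes 37 passed the adjusted p alone, as did 96.1% of all genes tested, so the minimum fold decided most calls. The called genes were Eif5a2, Ago1, Eif4ebp2, Eif2a, Eif4e, Eif5, Eif2b3, Eif3a and Eif2s1. The median log2 ratio of the 40 genes was 0.56, against -0.02 for all genes tested, and 32 of the 40 lay above the median of all genes. The quartiles of the Eif genes were 0.03 and 0.99, against -1.02 and 0.76 for all genes, and 77.5% of the Eif genes were within 2-fold, against 55.8% of all genes. The share called higher was near that of all genes, and none of the 40 genes reached a log2 ratio of -1. With array SDs as small as those seen here, a 2-fold difference nearly ensures that signal ranges do not overlap. A lack of overlap given below for a called gene therefore adds little to its call.

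**Figure D1:**
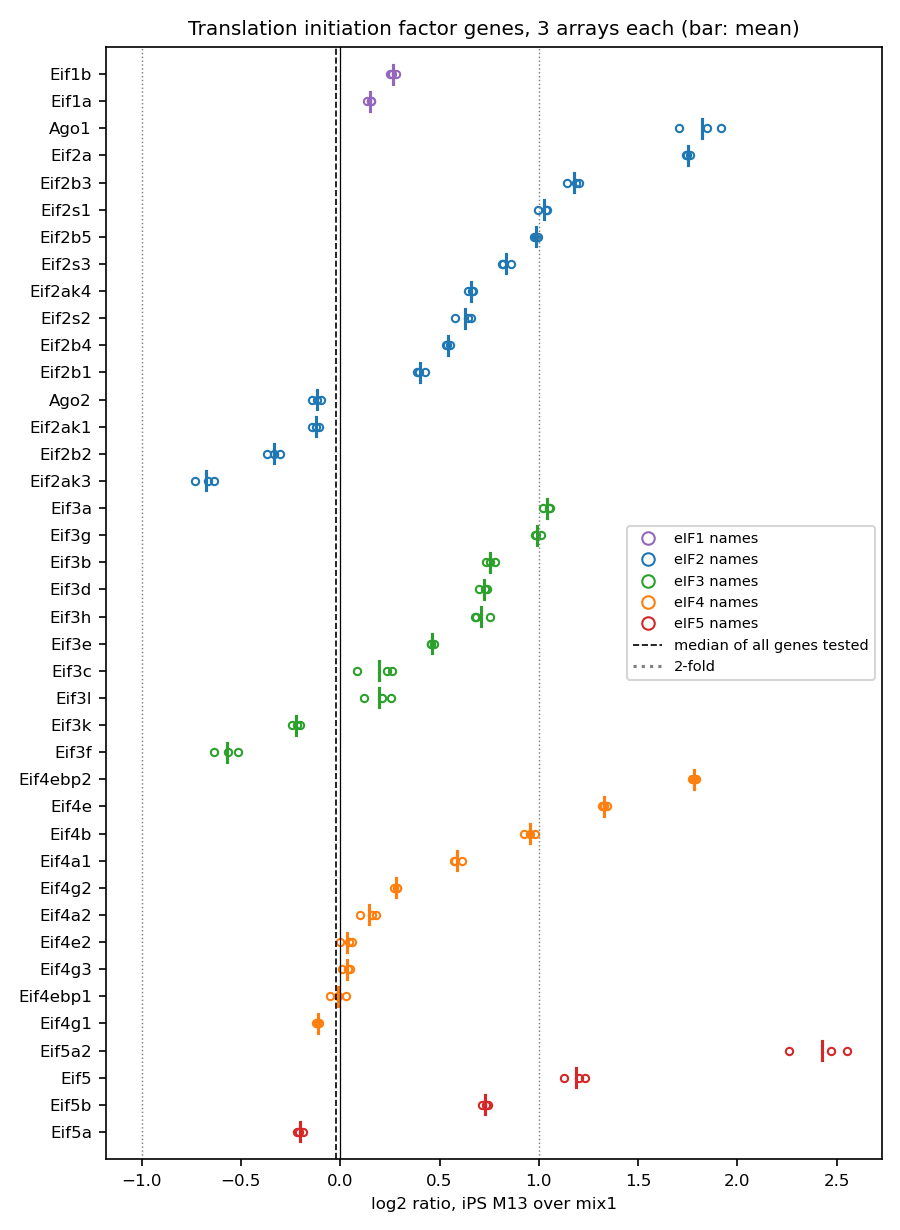
Log2 ratios of iPS M13 over mix1 (x axis) for the 40 measured Eif genes (y axis), grouped by the digit in the name, with a circle for each of the 3 arrays and a bar at their mean. The dashed line is the median of all genes tested (-0.02) and the dotted lines mark 2-fold, which 9 genes passed, from Eif2s1 (1.03) to Eif5a2 (2.43).

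By factor number, all 5 groups had a median above that of all genes. The 4 measured eIF5 genes had 2 called higher and a median of 0.96. The 14 eIF2 names had 4 called higher and a median of 0.64, and the 12 of them that are not Argonautes had 3 called higher with the same median. The 10 eIF3 genes had 1 called higher and a median of 0.58, the 10 eIF4 genes 2 and a median of 0.21, and the 2 eIF1 genes 0 and a median of 0.21. By role, 3 of 7 single-chain factors were called higher, 1 of 3 eIF2 subunits, 1 of 5 eIF2B subunits and 1 of 10 eIF3 subunits. The count was 1 of 8 for genes grouped with eIF4F and 1 of 2 for eIF4E binding proteins. For measured Argonautes it was 1 of 2, and for eIF2 kinases 0 of 3. The eIF4F group holds subunits, cofactors and the relatives Eif4e2 and Eif4g2. These groups are small, and their differences were not tested.

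The signals behind these ratios came from arrays on which 53.5% to 60.8% of probes were well above background for iPS M13 and 52.4% to 61.0% for mix1. The number of arrays limits the precision. The ratios of all genes tested, each from its brightest kept probe, correlated between arrays at 0.997 to 0.998, across genes that are not independent replicates. The cell types of mix1 were clear in it: of the marker genes, 7 of 7 for fibroblasts and 6 of 6 for macrophages and blood were lower in iPS M13, with Col3a1, a fibrillar collagen, at a log2 ratio of -10.79 and Cd14, a monocyte receptor, at -7.49. The log2 of the summed fibroblast marker signal was 13.67 to 13.89 in iPS M13 and 20.45 to 20.62 in mix1, and that of the macrophage and blood markers 11.01 to 11.13 in iPS M13 and 17.68 to 17.76 in mix1. Thy1, Postn, Ptprc and Ctss were on 0 arrays well above background in iPS M13. Of 7 pluripotency markers 6 were higher in iPS M13, among them Sox2 at 2.62 and Dnmt3b at 4.10, and Lin28a was not called (-0.15, and up to 0.37 under 5 other settings in which its sign turned). The log2 of their summed signal was 15.55 to 15.59 in iPS M13 and 12.24 to 12.31 in mix1, where Pou5f1 failed that limit on all 3 arrays. The part of cell type composition in the Eif ratios was not tested, and in these bulk RNAs fewer cells of a type and less RNA per cell cannot be told apart. Dye and group cannot be told apart either, since iPS M13 was in Cy3 on every array.

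Within eIF2, the complex that delivers the initiator tRNA, all 3 subunits had positive ratios. Eif2s1, the alpha subunit that the stress kinases phosphorylate, gave normalised log2 signals of 13.49, 13.72 and 13.55 in iPS M13 and 12.44, 12.68 and 12.55 in mix1. Every iPS M13 value lay above every mix1 value, and the log2 ratio was 1.03 ± 0.02 (SD, n = 3; limma adjusted p = 5.27e-06), just past the threshold, a call that ended once the trend with GC content was taken off (0.88). Its probe lies on chromosome 6 from 101519522 to 101521522 in build rn3. The gamma subunit Eif2s3, which binds GTP, had a ratio of 0.83 ± 0.03 and was not called.

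The beta subunit Eif2s2 had 3 probes that gave different calls. Its brightest probe read 16.39, 16.26 and 16.29 in iPS M13 and 15.73, 15.62 and 15.71 in mix1, a log2 ratio of 0.63 ± 0.04 that was not called. A dimmer probe read 13.08, 13.09 and 13.25 in iPS M13 and 11.30, 11.28 and 11.48 in mix1, a ratio of 1.79 that would be called, and the other gave 0.51. All 3 probes had iPS M13 above mix1 on all arrays.

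Eif2a encodes eIF2A, a separate single-chain protein that can bind initiator tRNA and is not a subunit of eIF2. It had signals of 14.18, 14.12 and 14.09 in iPS M13 and 12.42, 12.37 and 12.35 in mix1. The groups did not overlap, and the difference of 3.37-fold (log2 ratio 1.75 ± 0.01, adjusted p = 1.28e-06 by limma) was past the threshold under all 13 other settings tried. Some of these, such as the 1.5-fold minimum, could not end the call, and the lowest ratio among the settings was 1.46. The probe lies on chromosome 2 from 147847052 to 147847111 in rn3.

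eIF2B is the exchange factor that reloads eIF2 with GTP, and its 5 subunits did not share a ratio. Eif2b3, the gamma subunit, gave 13.78, 13.64 and 13.68 in iPS M13 and 12.57, 12.45 and 12.54 in mix1, without overlap. Its log2 ratio was 1.18 ± 0.03 (limma adjusted p = 4.80e-06), and its second probe gave 1.14. The catalytic epsilon subunit Eif2b5 stood just under the threshold at 0.99, the delta subunit Eif2b4 at 0.54 and the alpha subunit Eif2b1 at 0.40. The beta subunit Eif2b2 had a ratio of -0.34, whose sign turned to 0.40 under median centring, 0.34 without within-array normalization and 0.11 once the trend with GC content was taken off.

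None of the 3 eIF2 kinases on the list was called. Eif2ak3 (PERK), which senses unfolded protein in the endoplasmic reticulum, gave 9.90, 9.86 and 9.95 in iPS M13 and 10.63, 10.49 and 10.62 in mix1. All iPS M13 values were below those of mix1, and its log2 ratio of -0.68 ± 0.05 was the lowest of the 40 genes, though it turned to 0.09 under median centring and 0.04 without within-array normalization. Eif2ak4 (GCN2), the kinase that responds to amino acid shortage, gave 12.73, 12.85 and 12.75 in iPS M13 and 12.06, 12.18 and 12.10 in mix1. These groups did not overlap, and the ratio was 0.66 ± 0.01. Eif2ak1 (HRI), the kinase regulated by heme, gave 13.84, 13.78 and 13.90 in iPS M13 and 13.98, 13.90 and 14.01 in mix1. Its iPS M13 values were lower on each array, with a ratio of -0.12 ± 0.02, but positive under 4 other scalings, up to 0.64 under median centring. Eif2ak2 (PKR), activated by double-stranded RNA, is named Prkr on the array and so was not among the 42 genes; it gave 11.24, 11.27 and 11.18 in iPS M13 and 11.10, 11.11 and 11.00 in mix1. Its ratio was 0.16, and its other probe gave -0.19, so that the mean over both was -0.01, and -0.06 was obtained once the trend with GC content was taken off. Within each array, the ratio of Eif2ak3 minus that of Eif2ak4 was negative on all 3 arrays, with a mean of -1.34 ± 0.06 (SD, n = 3). For such differences the smallest p of an exact two-sided sign-flip test over 3 arrays is 0.25, so none is given.

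eIF3 is the largest initiation factor, a complex that holds the small ribosomal subunit ready for the messenger RNA. Of the 10 measured subunits within the rule 1 was called, 8 lay above the median of all genes and the ratios ran from -0.57 to 1.04. Outside the rule by their array names, the subunits Eif3j (1.53) and Eif3m (1.19) were called higher, and Eif3i (0.18) was not called. Eif3a, the large scaffold subunit, gave 16.22, 16.25 and 16.21 in iPS M13 and 15.17, 15.23 and 15.16 in mix1 from its brightest probe. The groups did not overlap at a log2 ratio of 1.04 ± 0.02 (limma adjusted p = 4.23e-06). Its other probes read 15.47, 15.51 and 15.46 in iPS M13 and 14.66, 14.67 and 14.63 in mix1, a ratio of 0.83, and 12.61, 12.52 and 12.61 in iPS M13 and 12.48, 12.38 and 12.46 in mix1, a ratio of 0.14. The call therefore rested on the probe that stands for the gene, at chromosome 1 from 267580519 to 267580578 in rn3, and ended when probes were averaged (0.67) or the trend with GC content was taken off (0.82).

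Eif3g, an RNA-binding subunit, stood at 0.99 and was not called. Eif3b, Eif3d and Eif3h followed at 0.76, 0.72 and 0.71, and Eif3e at 0.46. Eif3c and Eif3l were both at 0.19, on single arrays between 0.09 and 0.26, while the second probe of Eif3l gave 0.60. Eif3k was at -0.22, a sign that turned under median centring (0.63). Eif3f was the lowest, at -0.57 ± 0.06 (SD, n = 3), and it was the only 1 of the 9 genes with a negative ratio that kept its sign under median centring.

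Within eIF4F, the cap-binding subunit was called and the scaffold and helicase genes were not. Eif4e, which binds the cap, gave 15.18, 15.32 and 15.25 in iPS M13 and 13.86, 14.00 and 13.91 in mix1. All iPS M13 values lay above those of mix1, at a 2.51-fold difference (log2 ratio 1.33 ± 0.01, limma adjusted p = 2.06e-06), and its second probe gave 1.36. Its probe lies on chromosome 2 from 236090339 to 236090398 in rn3. The cap-binding paralog Eif4e2 (4EHP), known in other mammals as a repressor of translation, was at 0.03 ± 0.03 with overlapping groups, while its second probe gave 0.32 without overlap. Within the arrays Eif4e stood above Eif4e2 by 1.27, 1.27 and 1.34, a mean of 1.29 that was 0.78 once the trend with GC content was taken off.

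The helicase genes Eif4a1 and Eif4a2 had log2 ratios of 0.59 and 0.15, and the difference of 0.44 ± 0.06 (SD, n = 3) ran the same way on all 3 arrays and was 0.74 once the trend with GC content was taken off. The main scaffold Eif4g1 was at -0.11 from its brightest probe, with overlapping signal ranges. Its other probes gave -0.15 and 0.44, the latter with every iPS M13 value above every mix1 value. The sign of Eif4g1 turned under 5 settings, among them the mean over probes (0.06) and median centring (0.50). Eif4b, which stimulates the helicase, was at 0.95 from its brightest probe, just under the threshold. Its probes, and those of Eif4g2 and Eif4g3, gave different calls.

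Eif4b had 4 probes, all kept. The brightest read 15.94, 15.99 and 15.96 in iPS M13 and 14.98, 15.06 and 14.98 in mix1. Others at chr7:140911823-140911882 and chr7:140911322-140911381 gave ratios of 1.11 and 1.18, both past the threshold. The probe at chr7:140909063-140910385, spotted 10 times per array, read 13.19, 13.15 and 13.19 in iPS M13 and 13.76, 13.70 and 13.75 in mix1, a ratio of -0.56 ± 0.01. This probe had iPS M13 below mix1 on all arrays, against the other 3 of its gene, and 5 of its spots over the arrays were left out as outliers. Its positions cover 1323 bases for a probe of 60, whereas each of the others covers 60.

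Eif4g3, a second scaffold, had 1 probe with a ratio of 0.03 ± 0.02 that read 13.30, 13.48 and 13.34 in iPS M13 and 13.29, 13.44 and 13.31 in mix1. Another, with 75% GC, read 11.05, 11.06 and 11.03 in iPS M13 and 13.18, 13.20 and 13.17 in mix1, a ratio of -2.14 that would be called lower. The groups overlapped on the first probe and stood far apart on the other, and the mean over both (-1.05) made Eif4g3 the only Eif gene called lower in that setting. The 3 probe sequences at issue are shown 5′ to 3′, as deposited with the arrays, since each gene has probes that differ in sign or call here. Capitals mark runs of at least 3 G or C.
Eif4b, chr7:140909063-140910385, plus strand of rn3, ratio -0.56: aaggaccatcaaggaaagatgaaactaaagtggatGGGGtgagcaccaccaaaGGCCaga
Eif4g3, chr5:156765974-156766033, plus strand of rn3, ratio -2.14: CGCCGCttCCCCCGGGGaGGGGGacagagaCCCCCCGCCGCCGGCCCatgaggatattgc
Eif4g3, chr5:156986780-156988704, plus strand of rn3, ratio 0.03: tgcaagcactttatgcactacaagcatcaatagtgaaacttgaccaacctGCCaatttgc
The Eif4g3 probes differ in composition, 75% against 41.7% GC, while the Eif4b probe, at 48.3%, is close to the 45% of its gene's others. No annotation of build rn3 was used here, so whether a probe lies in an exon or a UTR is not given.

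Eif4g2 (DAP5), a scaffold relative that lacks the eIF4E binding site, had 5 probes with ratios from 0.28 to 1.32, all positive. The brightest read 15.83, 15.74 and 15.86 in iPS M13 and 15.54, 15.47 and 15.58 in mix1 and was not called. Those at 1.05 and 1.32 would be called: the first read 16.08, 16.05 and 16.11 in iPS M13 and 15.05, 14.99 and 15.06 in mix1, and the second 13.64, 13.54 and 13.73 in iPS M13 and 12.32, 12.21 and 12.41 in mix1. In all 5 the iPS M13 values lay above mix1, although 1 probe is placed on chromosome 9 and the other 4 on chromosome 1. The brightest probe had the lowest ratio of the 5, of which 3 were not called, and its ratio turned to -0.01 once the trend with GC content was taken off.

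The eIF4E binding proteins differed from each other. Eif4ebp2 (4E-BP2) gave 15.52, 15.48 and 15.56 in iPS M13 and 13.74, 13.70 and 13.77 in mix1 from its brightest probe. The groups did not overlap, at 3.44-fold higher in iPS M13 (log2 ratio 1.78 ± 0.01, adjusted p = 1.20e-06 by limma). Its other probe, at 43.3% GC against 30%, read 9.39, 9.46 and 9.49 in iPS M13 and 8.33, 8.57 and 8.53 in mix1, a ratio of 0.97 just under the threshold. Eif4ebp1 (4E-BP1), the best studied mTOR target of the family, gave 16.44, 16.63 and 16.37 in iPS M13 and 16.41, 16.64 and 16.42 in mix1. These values overlapped, and the ratio of -0.01 ± 0.04 (limma adjusted p = 0.648) had no stable sign over the settings, while its second probe was at -0.44. The ratio of Eif4ebp1 minus that of Eif4ebp2 was -1.75, -1.78 and -1.85 within the arrays, a mean of -1.79 ± 0.05 (SD, n = 3), and lay between -2.06 and -1.05 over the other settings, the smallest in size once the trend with GC content was taken off. The transporter Eif4enif1 (4E-T), which carries eIF4E into the nucleus and has another name on the array, gave 12.04, 11.99 and 11.92 in iPS M13 and 12.02, 11.98 and 11.90 in mix1. Its groups overlapped at a ratio of 0.02 ± 0.01 (limma adjusted p = 0.252).

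**Figure D2:**
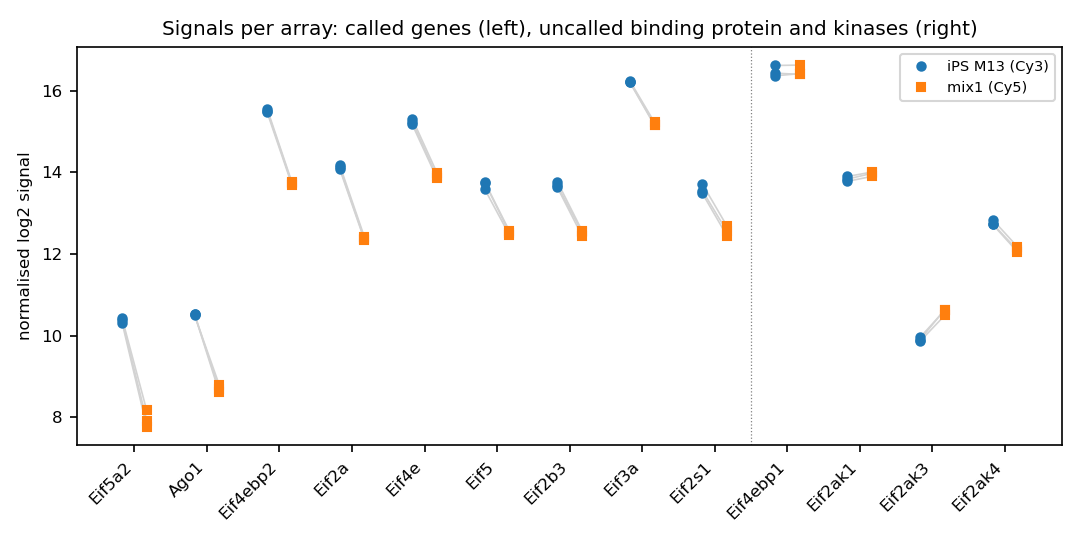
Normalised log2 signal (y axis) of iPS M13 (circles, left of each pair) and mix1 (squares, right) on each of the 3 arrays for the 9 called genes, left of the dotted line, and for Eif4ebp1 and the 3 eIF2 kinases, right of it; grey lines join the channels of an array. Every called gene has all iPS M13 values above all mix1 values, which at these small SDs nearly follows from the call. Eif4ebp1 overlaps, and Eif2ak3 and Eif2ak1 lie lower in iPS M13 after loess, a direction that turned under median centring.

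Among the factors of start-site selection and subunit joining, Eif5, the protein that triggers GTP hydrolysis by eIF2, was called. It gave 13.59, 13.77 and 13.75 in iPS M13 and 12.46, 12.56 and 12.52 in mix1, without overlap, at a log2 ratio of 1.19 ± 0.06 (limma adjusted p = 1.29e-05). Its other probe read 12.44, 12.42 and 12.45 in iPS M13 and 12.10, 12.02 and 12.07 in mix1, a ratio of 0.37. The call ended with the mean over both probes (0.78) and with the trend with GC content taken off (0.82).

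Eif5b, which joins the ribosomal subunits, had a ratio of 0.73 from its brightest probe, with 13.97, 13.89 and 13.91 in iPS M13 and 13.25, 13.14 and 13.18 in mix1. Its second probe read 12.23, 12.15 and 12.17 in iPS M13 and 11.04, 10.96 and 10.97 in mix1, a ratio of 1.19 that would be called. The dimmest read 10.21, 10.34 and 10.29 in iPS M13 and 9.97, 10.07 and 10.05 in mix1, a ratio of 0.25. All 3 probes had iPS M13 above mix1. Eif1a and Eif1b, of the factors that keep the scanning ribosome open, had ratios of 0.15 and 0.26 and were not called. Eif1b was at -0.10 once the trend with GC content was taken off, but called higher under median centring (1.11) and without within-array normalization (1.05), where Eif1a was at 0.92 and 0.86.

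The paralogs Eif5a and Eif5a2 stood furthest apart of the paralog pairs compared within the 42 genes. Both encode forms of eIF5A, the protein that carries the modified amino acid hypusine and eases the ribosome through difficult sequences. Eif5a2 gave 10.32, 10.43 and 10.38 in iPS M13 and 7.77, 8.16 and 7.91 in mix1. The groups lay far apart, at 5.38-fold higher in iPS M13 (log2 ratio 2.43 ± 0.15, limma adjusted p = 2.03e-05), with mix1 well above background on 2 of the 3 arrays. Its probe lies on chromosome 2 from 116089784 to 116089843 in rn3. Eif5a was at -0.20 ± 0.02, and its sign turned under median centring (0.21). The ratio of Eif5a minus that of Eif5a2 was -2.74, -2.47 and -2.69 within the arrays.

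The Argonaute genes were found through their old names, Eif2c1 to Eif2c4, and encode the proteins that hold small RNAs rather than initiation factors. Ago1 gave 10.52, 10.49 and 10.52 in iPS M13 and 8.68, 8.79 and 8.60 in mix1, without overlap (3.54-fold higher, log2 ratio 1.82 ± 0.11, limma adjusted p = 1.88e-05). Its other probe read between 7.99 and 8.2 in iPS M13 and 7.43, 7.41 and 7.55 in mix1. These mix1 signals failed the limit for being well above background on all 3 arrays, so its log2 ratio of 0.64 (1.56-fold) is uncertain. For a bound, the mix1 signal of an array was raised, where it was smaller, to the lowest signal found well above background there. This left the ratio at 0.64, so no separate bound was obtained. Ago2, the Argonaute that cleaves its targets, was at -0.12 ± 0.02 and turned positive under 5 settings. Ago3 and Ago4 were not measured, with iPS M13 well above background on 2 arrays for Ago3 and on 0 for Ago4, and mix1 on 0 for both.

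A further 14 genes carry an Eif symbol today but another name on the array, so they were outside the rule, and 13 of them were measured. Called higher were the eIF3 subunits Eif3j (1.53 ± 0.01) and Eif3m (1.19 ± 0.02). Called lower were Eif4e3, a cap-binding paralog of eIF4E, and Eif1-ps8, listed by symbol as a pseudogene of Eif1, whose probe may share transcripts with its parent gene and is uncertain for that reason. Eif4e3 gave 7.57, 7.46 and 7.65 in iPS M13 and 11.37, 11.35 and 11.30 in mix1. The groups lay far apart, 13.7-fold lower in iPS M13 (log2 ratio -3.78 ± 0.12), and its second probe was also called lower, at -1.82. The log2 ratio of Eif4e minus that of Eif4e3 was 5.11 ± 0.11 within the arrays (SD, n = 3), so the cap-binding genes ran from 13.7-fold lower to 2.51-fold higher in iPS M13.

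**Figure D3:**
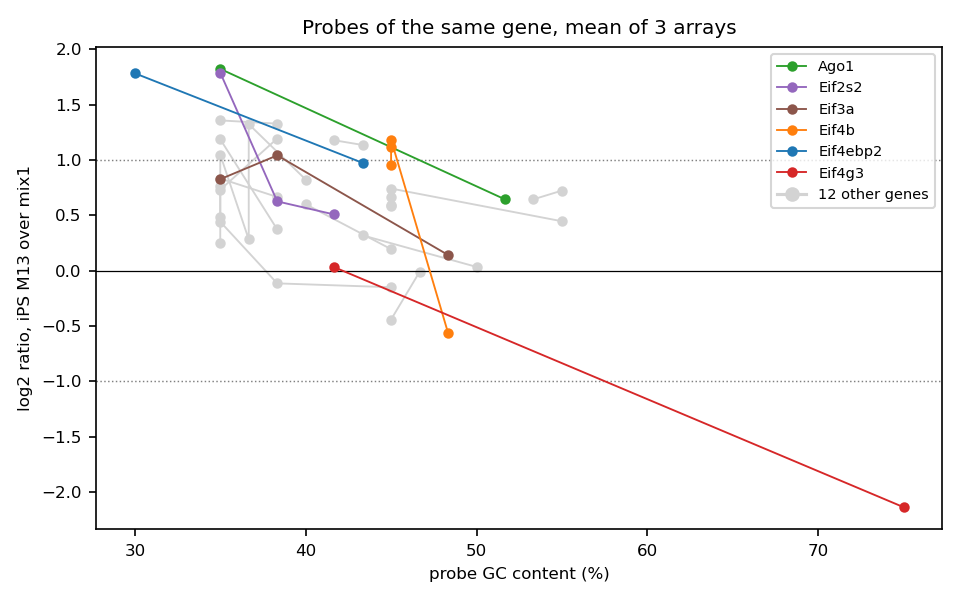
Log2 ratio of iPS M13 over mix1 (y axis, mean of 3 arrays) against probe GC content (x axis) for the 18 genes with at least 2 kept probes, with lines joining the probes of a gene and dotted lines at 2-fold. The 6 coloured genes are among those whose probes differ in call, and the lowest point is the Eif4g3 probe with 75% GC at -2.14.

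Probes of 1 gene often disagreed in size. Of the 18 genes with at least 2 kept probes, 9 had probes that differed in call, and in 5 the ratios spanned more than 1 on the log2 scale, with a median span of 0.70 over the 18. In 14 of the 18 the probe with the lowest GC content had a higher ratio than the one with the highest. Over all genes the log2 ratio fell by 0.43 per 10% of GC content, and over the probes standing for the Eif genes by 0.59. These Eif probes had a median GC content of 41.7%, against 43.3% for all genes. With the trend over all kept probes taken off within each array, the median of the Eif genes was 0.44. The steeper trend among the Eif genes was not taken off. The part of base composition in single Eif ratios was not tested beyond this.

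Promoter sequences, from 250 bases before to 50 bases after the annotated start in RefSeq (build GRCr8), were at hand for 37 of the 42 genes and were searched for 9 motifs on both strands. The E-box CACGTG, the site that the Myc and Max proteins are known to bind, was found in 8 of the 37 (21.6%), against 6.42% of all 33469 promoters and 9.25% of the 9385 promoters of genes tested. The 8 were Eif1b, Eif3a, Eif3b, Eif3f, Eif4e, Eif4g1, Eif5a and Eif5a2, of which 3 were called higher and Eif3f was the lowest of eIF3. The ETS motif CCGGAAGT was found in 9 (24.3%), against 3.81% of all promoters and 8.22% of those of genes tested. The GC box GGGCGG was in 25 (67.6%), against 33.1% of all promoters and 61.4% of those of genes tested, and CCAAT in 15 (40.5%), against 37.5% and 37.8%. The ATF4-CEBP motif TGATGNAA was in 2 (5.41%), against 3.98% and 2.04%, and the NRF1 motif in 1 (2.70%), against 0.852% and 1.89%. Genes called higher were 2 of the 9 with the ETS motif, 7 of the 25 with the GC box and 6 of the 15 with CCAAT. They were 0 of those with the ATF4-CEBP or NRF1 motif, and 9 of all 40 measured Eif genes (22.5%). These counts were not tested. No match was found for the PAR bZIP motif TTACGTAA, the CRE motif TGACGTCA or the YY1 motif. No motif contains another, and a match describes letters only. The promoters of the 3 called genes with an E-box are shown 5′ to 3′ on the strand of the gene, with each E-box in capitals.
Eif4e, chr2:229740503-229740802, plus strand: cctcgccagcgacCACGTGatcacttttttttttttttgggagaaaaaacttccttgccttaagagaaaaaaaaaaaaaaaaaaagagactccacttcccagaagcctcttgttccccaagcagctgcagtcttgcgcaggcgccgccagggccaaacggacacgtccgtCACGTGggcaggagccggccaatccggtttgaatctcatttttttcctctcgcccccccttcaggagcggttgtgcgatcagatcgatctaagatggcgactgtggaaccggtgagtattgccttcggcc
Eif5a2, chr2:113657584-113657883, plus strand: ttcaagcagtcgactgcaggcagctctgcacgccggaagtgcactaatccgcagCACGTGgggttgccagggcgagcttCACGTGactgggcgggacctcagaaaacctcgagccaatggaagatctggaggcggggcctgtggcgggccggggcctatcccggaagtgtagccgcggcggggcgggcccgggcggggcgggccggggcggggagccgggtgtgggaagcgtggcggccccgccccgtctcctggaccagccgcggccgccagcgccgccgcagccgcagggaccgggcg
Eif3a, chr1:269918976-269919275, minus strand: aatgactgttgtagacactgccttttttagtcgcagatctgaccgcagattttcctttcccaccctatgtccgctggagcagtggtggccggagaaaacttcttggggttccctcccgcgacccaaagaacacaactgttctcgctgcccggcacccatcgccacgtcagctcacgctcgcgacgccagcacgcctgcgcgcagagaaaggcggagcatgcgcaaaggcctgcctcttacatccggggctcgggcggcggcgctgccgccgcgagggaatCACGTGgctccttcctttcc
Eif4e and Eif5a2 hold 2 E-boxes each, at -237 and -80 and at -196 and -171 relative to the annotated start. The single E-box of Eif3a lies after the start, at 30.

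Genes of the neighbouring steps of translation were read from the same fit, in which 18.8% of all genes were called higher and 25.4% lower; the lists are small and their counts were not tested against those shares. Of 5 measured genes listed here under other initiation 3 were called higher and 0 lower, with a median of 1.08. They were Mcts1 (1.26), which acts with Denr in reinitiation, Abcf1 (1.19), which associates with eIF2, and Abcf2 (1.08). Abcf2, like Eef1e1 in the next list, is counted by the list that holds it, and its role in that step was not examined. The elongation and release list had a median of 0.47, and 4 of its 12 genes were higher and 2 lower. The higher ones were led by the ribosome recycling factor Abce1 (1.78), the selenocysteine elongation factor Eefsec (1.55) and Eef1e1 (1.35), and the lower ones were the elongation factor subunits Eef1g and Eef1a1, both at -1.24. Of 6 poly(A) binding proteins and their partners 0 were called in either direction, with ratios from -0.85 to 0.94. All 6 had an adjusted p under 0.05 by limma, as had 96.1% of all genes tested. Under median centring the other initiation list had 5 of 5 higher, the elongation and release list 6 higher and 0 lower, and the poly(A) list 3 higher and 0 lower, in a setting where 36.4% of all genes were called higher and 17.8% lower.

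The regulators around the kinases and binding proteins had medians below that of all genes. Of 11 measured genes of mTOR and eIF4E signalling 0 were called higher and 4 lower, with a median of -0.36. These 4 were the mTOR inhibitors Ddit4 (-2.39), Sesn2 (-1.99) and Tsc2 (-1.14), and the kinase Akt1, which acts upstream of mTOR. Akt1 (-1.01) was just past the threshold. The uncalled genes ran from Deptor at -0.62 to Mtor itself at 0.96, just under the threshold, with Rps6kb1 at 0.79. The integrated stress response list had a median of -0.97, and 6 of its 12 genes were lower and 1 higher. The lower ones were led by Chac1 (-4.38), Trib3 (-3.04) and Ddit3 (-2.53), known targets of the pathway that starts from eIF2 phosphorylation, and the asparagine synthetase gene Asns, another known target, was higher (1.19), a call that ended once the trend with GC content was taken off (0.97). In that setting the stress response list had 0 higher and 7 lower and the mTOR list 0 higher and 2 lower. Under median centring the mTOR list had 4 higher and 2 lower and the stress response list 2 higher and 4 lower, with medians of -0.04 and -0.22 against 0.58 for all genes. Set beside these 2 lists, the Eif genes spanned a narrower range, from -0.68 to 2.43.

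**Figure D4:**
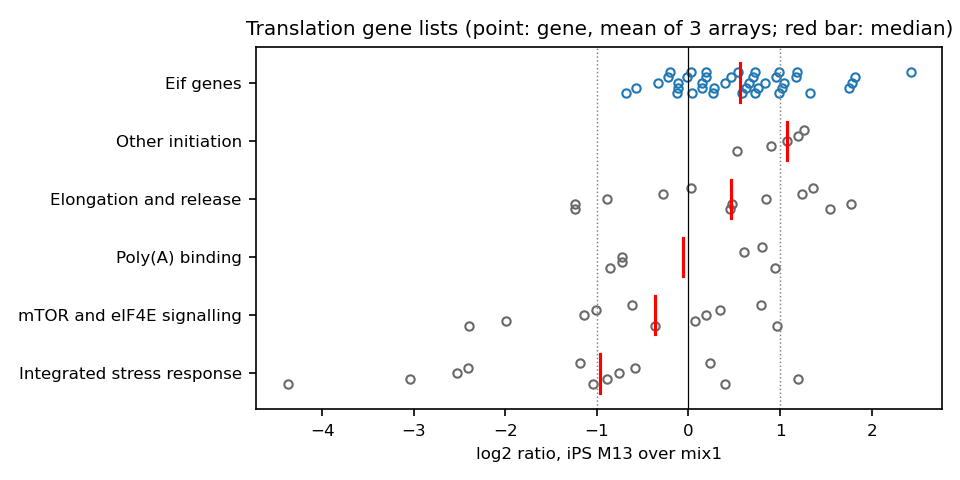
Log2 ratio of iPS M13 over mix1 (x axis, mean of 3 arrays) for each measured gene of the Eif set and of 5 other translation lists (rows), with red bars at the medians, dotted lines at 2-fold and points shifted vertically for legibility. The Eif genes have a median of 0.56 and the integrated stress response genes one of -0.97.

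The scaling of the arrays moved the Eif genes and all other genes together. The median of all genes was 0.58 under median centring, 0.52 without within-array normalization and 0.29 with the scanner software's processed signals, and the Eif median was 1.23, 1.18 and 0.85 in these settings. With these, 57.5%, 57.5% and 40.0% of the Eif genes were called higher, against 36.4%, 34.5% and 31.1% of all genes. The difference between the Eif median and that of all genes was 0.59 after loess and stayed between 0.44 and 0.65 under the other settings. All 9 called genes were also called in each of these scalings. Since each scaling raised the median of all genes, a call of higher could hardly end there. Under median centring 8 of the 9 negative ratios turned positive.

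**Figure D5:**
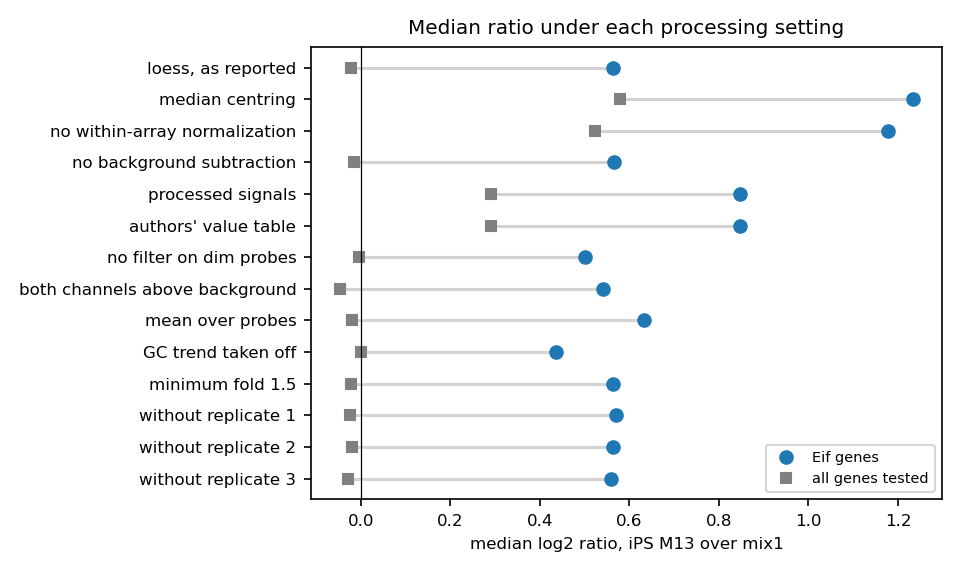
Median log2 ratio of iPS M13 over mix1 (x axis) of the measured Eif genes (circles) and of all genes tested (squares) under each processing setting (rows), joined by grey lines. Both medians shift with the scaling, and the Eif median stays above that of all genes by 0.44 to 0.65.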

How the data were processed

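RNA of iPS M13 (Cy3) and mix1 (Cy5) was measured on 3 two-colour arrays, on 1 slide. Spot intensities, mean signal and median local background, were deposited as Agilent Feature Extraction 9.5.3.1 gave them, per the file headers. The deposited log10 ratios run Cy5 over Cy3, per the file headers. The log2 ratios of the authors' deposited values had slopes of -3.32 against those log10 ratios, so they were read as Cy3 over Cy5; their column medians were -0.0413, -0.0282 and -0.0286, and whether they were centred is unknown.

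Here signals were corrected by normexp (offset 50) and scaled by loess within arrays, with control spots at weight 0 and outlier spots left out, in limma 3.58.1 (R 4.3.3, with data.table in version 1.17.8). Signals quoted were also Aquantile-scaled between arrays. The brightest kept probe stood for a gene. The ratio was tested against 0 with lmFit and eBayes; mix1 counts as 1 control RNA, whose spread is left out. The fit was also run on simulated ratios, drawn independently with the observed SDs. These hold no dye, GC or scaling effect, so the run cannot show how such effects bear on the calls. Over 263 probes with 10 spots, the median SD between arrays was 0.0281, against 0.0207 from spots alone, which cannot show whether the arrays held separate cultures. Each array was counted as a sample because the labels give it as one.

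Probe names were updated through RefSeq (GRCr8): of 41012 probes, 10735 matched by accession, 5577 by symbol, 3730 by synonym and 1217 by gene ID, and 19753 kept their name. Positions are those of rn3 in the files. Names were joined in Python 3.11.15 (numpy 2.4.6, pandas 2.3.3) and figures drawn with matplotlib 3.10.9. Values on every array are given for called Eif genes, eIF2 kinases, eIF4E binding proteins and transporter, and genes whose probes differ in call. Of other lists, at most 3 called genes per direction are named, with 1 more for mTOR signalling, added after its value was seen. The uncalled genes Deptor, Mtor and Rps6kb1 of that list were likewise added after their values were seen. Members, lists and tests were chosen with earlier results of these data known. Alternatives were other scalings, filters, probe rules, GC correction, a 1.5-fold minimum and leaving out each array.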

Additional observations from a re-analysis of the deposited data

How the results depend on the processing

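No paired analysis was possible because the labels give 1 group of samples, beyond the reported test itself, which pairs the channels of each array. A slide block was not run because all 3 arrays share 1 slide. The count of Eif genes called higher was 9 in the reported setting. It was 23 under median centring and without within-array normalization, 16 with the processed signals and the authors' deposited value table, and 20 at a 1.5-fold minimum. All 9 were among them in each of these 5 settings. These settings raised the median of all genes or loosened the minimum fold, so a call of higher could hardly end in them. It was 8 with both channels above background, where Eif5a2 was not measured, 7 with the mean over probes, and 9 once the trend with GC content was taken off, of which 6 were shared with the reported 9 (Eif2s1 at 0.88, Eif3a and Eif5 dropped out). The count called lower was 0, and 1 with the mean over probes (Eif4g3) and at 1.5-fold (Eif2ak3). The Eif median of 0.56 was 1.23, 1.18, 0.85 and 0.85 in these 4 scalings, 0.50 without a filter on dim probes, 0.54 with both channels above background, 0.63 with the mean over probes and 0.44 with the GC trend off. Leaving out each array gave 9 higher and 0 lower each time, with medians of 0.56 to 0.57. The share of higher among all calls was 42.5% after loess, 67.2% under median centring, 65.1% without within-array normalization and 56.6% with the processed signals.

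Signs turned for 8 of the 9 genes with a negative ratio under median centring, Eif2ak3 (-0.68) and Eif2b2 (-0.34) included, and for others listed here. Under median centring, values were 0.73 for Ago2, 0.64 for Eif2ak1, 0.093 for Eif2ak3, 0.40 for Eif2b2, 0.63 for Eif3k, 0.39 for Eif4ebp1, 0.50 for Eif4g1, 0.21 for Eif5a and 0.45 for Eif6. Without within-array normalization they were 0.67, 0.59, 0.036, 0.34, 0.57, 0.33, 0.44, 0.15 and 0.39 in that order. With the processed signals and the authors' table alike they were 0.32 for Ago2, 0.14 for Eif2ak1, 0.13 for Eif3k, 0.33 for Eif4ebp1, 0.043 for Eif4g1, 0.071 for Eif5a and 0.032 for Eif6. With the GC trend off they were 0.032 for Ago2, -0.10 for Eif1b, 0.11 for Eif2b2, 0.23 for Eif3k, -0.072 for Eif4a2, 0.14 for Eif4ebp1, -0.010 for Eif4g2, -0.039 for Eif4g3, -0.058 for Eif2ak2 and 0.35 for Eif6. With the mean over probes they were 0.059 for Eif4g1, -1.05 for Eif4g3 and -0.013 for Eif2ak2, and Eif4ebp1 ran from -0.032 to 0.0099 when an array was left out, the highest without replicate 3. The difference of Eif4g1 minus Eif4g3 was -0.15, and 1.11 with the mean over probes. Beyond the construction of these settings the cause was not tested. Signal over background limits Ago3, Ago4 and the mix1 side of Eif5a2.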
